A study of Mus musculus with 5 samples.

Results

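Cells carrying Sca1 that were sorted from the muscle of mice given trichostatin A (TSA) were compared with muscle stem cells (MuSC) from mice given vehicle, to describe which gene programmes still set the treated interstitial cells apart from stem cells and which lay near the stem cell level. The comparison took every array whose label names Sca1+ cells with TSA, 2 arrays, and the array whose label names MuSC, 1 array, so 3 of the 5 arrays of the series. All non-control probes were used. All mice were C57BL/6 with the mdx genotype, a mutation of the dystrophin gene that serves as a model of Duchenne muscular dystrophy, and this holds for the vehicle groups too. TSA, an inhibitor of histone deacetylases, or its vehicle was injected intraperitoneally for 45 days, TSA at 0.6 mg per kg. The labels do not give the age of the mice or the number of mice behind an array. Both populations were sorted by flow cytometry as positive for CD34 and α7-integrin, and they were split by Sca1, which was present on the interstitial cells and absent from MuSC. Total RNA was labelled with Cy3 and hybridised to arrays of 1 colour. The 2 arrays of Sca1+ cells with vehicle entered the model for its estimate of the spread between arrays and are given beside the values. No array held MuSC with TSA, so the comparison joins a difference in cell population with a difference in treatment, and the contributions of the populations and of the drug cannot be told apart.

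Satellite cells are the resident stem cells of skeletal muscle. They are marked by the transcription factor Pax7 and build fibres through the myogenic regulatory factors Myf5, Myod1 and Myog, after which acetylcholine receptor and sarcomere genes are switched on. Fibroadipogenic progenitors (FAPs) lie between the fibres, carry Sca1 and the PDGF receptor Pdgfra, and make collagen and other matrix as well as secreted factors that act on satellite cells. Histone deacetylases remove acetyl groups from histones, and their inhibition raises transcription at many genes, muscle genes among them.

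Levels are given as log2 of the processed signal relative to the 75th percentile of the array, so a level of 0 is the signal of a probe brighter than 75% of the spots. Each difference is the mean of the TSA arrays minus the MuSC array on this scale, with the standard error of the linear model, and 1 unit is a doubling. The lone MuSC array was assumed to vary like the Sca1+ arrays. Whether replicates were separate animals is not stated, so p-values reflect the spread of these samples alone, and it may be technical. Each array had 58.5% to 66.9% of its spots well above background, and none was saturated. Precision is limited by the number of arrays. The median standard error of a difference was 0.24, and the smallest difference that passed the test was 0.87. The MuSC array and replicate 1 of each other group lay on slide 1, and slide 2 held no MuSC array. The TSA arrays correlated across genes at 0.989 with each other, and at 0.949 and 0.947 with the MuSC array.

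The genes of the sorting gate were checked first. Ly6a, which encodes Sca1, was at 5.89 and 5.71 with TSA and 1.46 in MuSC, a difference of 4.34 ± 0.20 (limma adjusted p = 0.00463). Cd34 was at 6.85 and 7.05 against 4.47, a difference of 2.48 ± 0.19. Itga7, which encodes α7-integrin, went the other way, at 4.53 and 4.59 against 7.02 and a difference of -2.46 ± 0.21. Ly6a thus separated the populations in the direction of the labels. Cd34 and Itga7 also differed, although both gates were described as positive for CD34 and α7-integrin. On the vehicle Sca1+ arrays Itga7 was at 1.35 and 1.09, below both TSA arrays.

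Of 26079 genes tested, 2076 (7.96%) were higher in TSA-treated Sca1+ cells than in MuSC and 1261 (4.84%) were lower, at an adjusted p under 0.05 (12.8% in both directions together). All 3337 lay on the same side of the MuSC array on both TSA arrays, and 922 of the higher and 385 of the lower genes differed at least 4-fold. A further 9313 genes (35.7%) were near the MuSC level, meaning that the 95% confidence interval of the difference lay within 1 log2 unit of 0 and the probe was well above background on all 3 arrays. The other genes were neither called nor near, so the arrays did not settle on which side they lie. The median difference over all genes was -0.13. With normexp background correction, 1912 genes were higher and 1766 lower, so that 52.0% of the calls were higher in place of 62.2%, and the median over all genes was -0.23. The calls rest on both TSA arrays: without TSA replicate 1 the counts were 381 higher and 116 lower, and without TSA replicate 2 limma called 0 genes in either direction, with 5280 at an unadjusted p under 0.05.

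Satellite cell genes stayed below MuSC. Of 33 tested, 23 were lower in TSA-treated Sca1+ cells, 1 was higher (Sdc3), 2 were near and 7 were neither, and the median difference was -1.92. The values of Pax7, the factor that defines the lineage, were -3.77 and -4.51 in Sca1+ cells with vehicle, -0.99 and -1.16 with TSA and 3.48 in MuSC. Both TSA arrays were above both vehicle arrays and far below MuSC, with a difference from MuSC of -4.56 ± 0.36 (adjusted p = 0.0068, 23.6-fold; probe at chr4:139294364-139294423, mm9). Calcr, the calcitonin receptor that keeps satellite cells quiescent, was at -2.21 and -2.11 with TSA and 2.27 in MuSC, a difference of -4.43 ± 0.21. The vehicle arrays read -6.78 and -6.55 for Calcr, where its probe was not above background. Vgll2, a cofactor of TEAD factors in muscle, was -4.03 ± 0.21 from MuSC, with 0.39 and 0.29 with TSA and 4.37 in MuSC. Cdh15, the M-cadherin that joins satellite cells to the fibre, was at 1.39 and 1.35 against 5.30, a difference of -3.93 ± 0.27. All 4 genes therefore showed the same order of arrays, vehicle Sca1+ lowest, TSA Sca1+ between and MuSC highest. Over the list, 18 of 33 genes had both TSA arrays between the vehicle arrays and a higher MuSC array, against 13.9% of all genes. The near members were general surface receptors: the integrin chain Itgb1 differed by -0.15 ± 0.19 and the FGF receptor Fgfr1 by -0.19 ± 0.23, with vehicle levels of 3.05 and 2.88 and 6.02 and 5.71. In bulk RNA, fewer cells of a type and less RNA per cell cannot be told apart, here and in the results that follow.

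The myogenic regulatory factors Myf5, Myod1 and Myog differed from MuSC by -3.74 to -3.15. Myf5, which acts early in commitment, was at -5.19 and -3.95 on the TSA arrays, above background on 1 of them, and at -0.83 on the MuSC array, a difference of -3.74 ± 0.56 (adjusted p = 0.0255). Myod1, the determination factor, was at -4.49 and -3.54 with vehicle, -1.14 and -0.70 with TSA and 2.23 in MuSC, a difference of -3.15 ± 0.47. Myog, which drives terminal differentiation, read -3.58 and -3.54 with vehicle, 1.12 and 1.53 with TSA and 4.80 in MuSC, a difference of -3.47 ± 0.25 (adjusted p = 0.00578). No TSA array reached the MuSC level of any of these genes. A gene was tested if it was above background on all arrays of 1 group or more. Myf5 met this only through the MuSC array, where it is high. The filter thus favoured a lower call for Myf5, and the satellite cell count and median include it. Of 30 genes of myogenic commitment and differentiation, 19 were lower, 1 was higher (Unc45b), 0 were near and 10 were neither, with a median of -2.43. Among them the cardiac-type actin Actc1, made in immature fibres, differed by -3.60 ± 0.20, the troponins Tnnt2 and Tnni1 by -3.70 ± 0.51 and -3.54 ± 0.25. The median of the same list was 1.27 for TSA minus vehicle Sca1+ cells and -3.94 for vehicle Sca1+ cells minus MuSC. These comparisons share arrays with each other, so the values are given side by side only.

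The acetylcholine receptor subunits of the synapse were also apart. Chrna1, its alpha subunit, was at -3.13 and -3.15 with vehicle, 1.39 and 1.29 with TSA and 4.85 in MuSC, a difference of -3.51 ± 0.18, and its other probe gave -3.97. The delta subunit Chrnd differed by -3.43 ± 0.56, the fetal gamma subunit Chrng by -2.73 ± 0.25 and the beta subunit Chrnb1 by -2.56 ± 0.27. Agrin (Agrn), which clusters the receptors, was near MuSC at -0.10 ± 0.22, although its second probe gave -0.90. In all 8 of 13 synapse genes were lower and the median was -2.05. Of 19 genes of calcium handling in the sarcoplasmic reticulum, 10 were lower, among them the release channels Ryr3 (-3.14 ± 0.20) and Ryr1 (-2.79 ± 0.33), the calcium channel subunit Cacng1 (-3.52 ± 0.46) and its partner Stac3 (-2.87 ± 0.23). The calcium buffer parvalbumin (Pvalb) was near, at 1.26 and 0.96 with TSA, 1.26 in MuSC and 0.16 and 0.48 with vehicle.

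Genes of the adult sarcomere, the contractile unit of the mature fibre, differed from MuSC by -3.45 to 0.94. Of 33 tested, 19 were lower, 0 were higher, 2 were near and 12 were neither, with a median of -1.79. The alpha-actinin of fast fibres, Actn3, was at -2.54 and -2.95 with vehicle, -0.04 and -0.13 with TSA and 3.18 in MuSC, a difference of -3.26 ± 0.25. Its relative Actn2 differed by -3.12 ± 0.26, the Z-disc protein Csrp3 by -3.45 ± 0.69 and the ubiquitin ligase Trim63 by -2.94 ± 0.21. Each was above background on 1 of the 2 TSA arrays. Actn2, Csrp3 and Trim63 met the filter only through the MuSC array, where they are high. This favoured a lower call for them, and the count and median include them. The Csrp3 call was lost with quantile normalization and with the deposited table. Myl2 and Tpm3 had the highest differences of the list, 0.94 ± 0.25 and 0.66 ± 0.20, and were neither called nor near. Myh4, the myosin heavy chain of the fastest fibres, lay near the MuSC level. It was at -2.43 and -2.97 with vehicle, 0.54 and 0.88 with TSA and 0.68 in MuSC, so the TSA arrays fell on either side of MuSC. The difference was 0.03 ± 0.32, with a 95% interval of -0.84 to 0.89 (probe at chr11:67073834-67073893, mm9). The slow light chain Myl3 was near too, at -0.19 ± 0.21, with -2.42 and -2.16 on the vehicle arrays. Dmd, the dystrophin gene mutated in these mice, was -1.54 ± 0.21 from MuSC (adjusted p = 0.0202). Its 4 probes ranged from -1.93 to 0.05, and its median over probes did not pass the test. Sarcomere genes are abundant in mature fibres too, and the part of fibre RNA in these values was not tested.

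The upstream sequences of 4 of these genes are shown because they span the range from genes far below MuSC (Chrna1, Tnnt2, Actc1) to a gene at the MuSC level (Myh4). Each run is the 250 bases before the start of the gene, 5′ to 3′ on the strand of the gene, from the RefSeq promoter table of build GRCm38.p6. Capitals mark 3 motifs read on both strands: the E-box variant CAGCTG, to which myogenic regulatory factors bind, the CArG box of serum response factor, and the MEF2 box; no 2 matches overlap in these runs. CAGCTG was added after the sequences had been read.
Chrna1, chr2:73580339-73580588, minus strand: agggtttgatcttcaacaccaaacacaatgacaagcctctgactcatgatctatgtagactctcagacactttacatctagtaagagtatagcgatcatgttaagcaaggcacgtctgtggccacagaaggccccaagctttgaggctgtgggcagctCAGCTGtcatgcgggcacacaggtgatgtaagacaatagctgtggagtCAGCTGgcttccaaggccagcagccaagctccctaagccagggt
Tnnt2, first of 2 starts in the table, chr1:135836084-135836333, plus strand: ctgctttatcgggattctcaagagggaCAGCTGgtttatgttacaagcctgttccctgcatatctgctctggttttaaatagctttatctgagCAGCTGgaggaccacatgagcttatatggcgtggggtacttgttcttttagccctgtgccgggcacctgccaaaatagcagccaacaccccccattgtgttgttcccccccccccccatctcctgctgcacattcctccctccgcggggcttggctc
Actc1, chr2:114052876-114053125, minus strand: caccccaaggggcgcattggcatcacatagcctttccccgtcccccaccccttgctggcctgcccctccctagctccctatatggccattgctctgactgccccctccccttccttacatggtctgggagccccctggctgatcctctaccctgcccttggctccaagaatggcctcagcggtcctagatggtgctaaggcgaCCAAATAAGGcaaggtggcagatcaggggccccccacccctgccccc
Myh4, chr11:67237562-67237811, plus strand: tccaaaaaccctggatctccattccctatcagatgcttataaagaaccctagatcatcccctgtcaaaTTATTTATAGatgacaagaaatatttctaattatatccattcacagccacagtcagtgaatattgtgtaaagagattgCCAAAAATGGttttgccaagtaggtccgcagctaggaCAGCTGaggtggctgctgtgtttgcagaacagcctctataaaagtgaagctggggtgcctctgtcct
In Chrna1 CAGCTG began 92 and 44 bases before the start, and in this Tnnt2 window 223 and 157 bases before it. Actc1 held a CArG box 47 bases before the start and no CAGCTG. Myh4 held all 3 motifs, the MEF2 box at 182, the CArG box at 104 and CAGCTG at 67 bases before the start. Over the 32851 promoters of the table, in windows of the same length, CAGCTG was found in 13%, any E-box CANNTG in 66.2%, the CArG box in 1.47% and the MEF2 box in 2.92%. The matches are a description of these letters and not of binding.

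**Figure D1:**
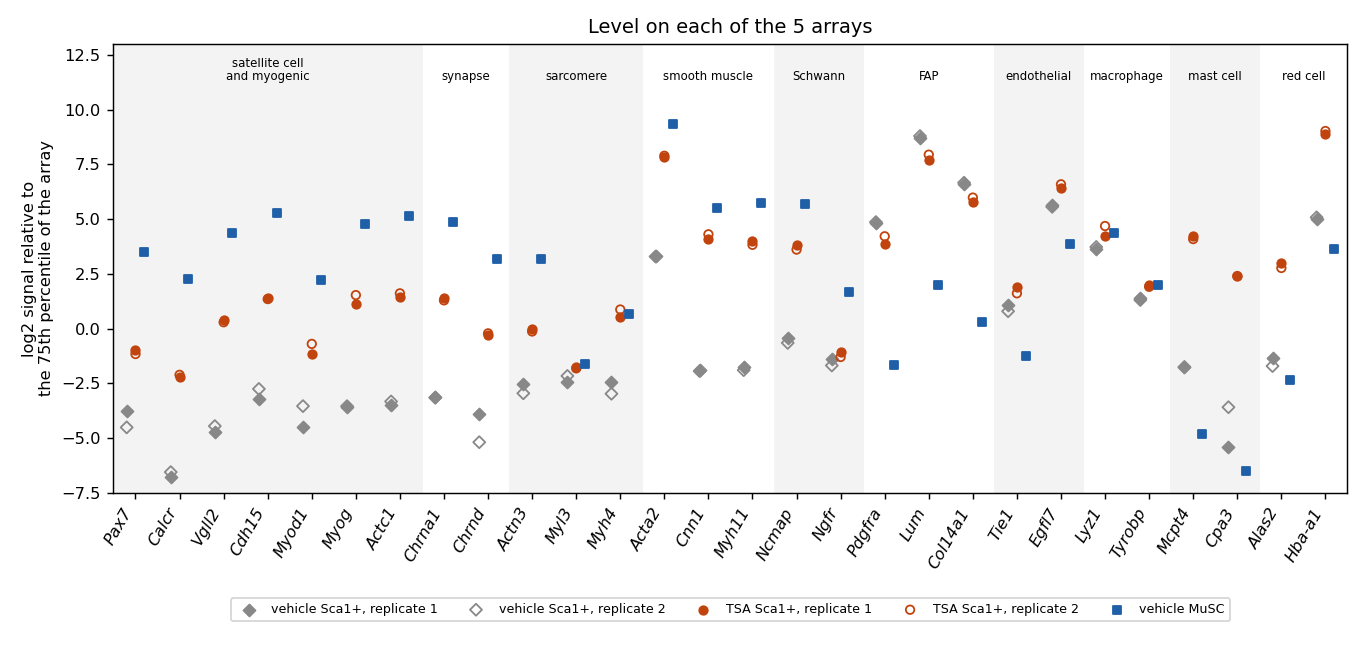
Levels of 28 genes on each of the 5 arrays, as log2 signal relative to the 75th percentile of the array, grouped by cell type or programme; diamonds are vehicle Sca1+ arrays, circles TSA Sca1+ arrays and squares the MuSC array, and levels of different genes are not comparable. For Pax7, Myog and Acta2 the TSA arrays lie between the vehicle arrays and MuSC, for Myh4 and Tyrobp they lie at the MuSC level, and for Mcpt4 and Hba-a1 they lie above both other groups.

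Genes of smooth muscle and pericytes, the contractile cells of vessel walls, were also lower than in MuSC. Of 20 tested, 13 were lower, by -2.56 to -1.32, 0 were higher or near and 7 were neither, with a median of -1.44. Smooth muscle actin (Acta2) read 3.33 and 3.29 with vehicle, 7.86 and 7.90 with TSA and 9.33 in MuSC, a difference of -1.45 ± 0.18 (adjusted p = 0.0168). Calponin (Cnn1) read -1.89 and -1.94, 4.09 and 4.31 and 5.52 in the same order of groups, a difference of -1.32 ± 0.20. The smooth muscle myosin Myh11 was -1.85 ± 0.19 from MuSC and the calcium pump regulator Pln -1.77 ± 0.28. For 19 of the 20 genes both TSA arrays lay above both vehicle arrays and below MuSC, against 13.9% of all genes. The list shares Des (-2.56 ± 0.19) and Notch3 (-1.92 ± 0.21) with the satellite cell list. The summed signal of the list, in units of the 75th percentile of each array, was 95.6 to 103 with vehicle, 650 to 701 with TSA and 1807 in MuSC, and every member was above background on the MuSC array. These values moved with the muscle genes across the 3 groups, and their part in the muscle results was not tested.

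Genes of Schwann cells, the glia that wrap the nerves of muscle, were mostly lower as well. Of 15 tested, 10 were lower than in MuSC, 0 were higher or near and 5 were neither, with a median of -1.67. Ncmap, which is found at myelin sheaths, was at -0.45 and -0.65 with vehicle, 3.82 and 3.61 with TSA and 5.68 in MuSC, a difference of -1.96 ± 0.21. The nerve growth factor receptor Ngfr had the largest gap of the list, -2.83 ± 0.23, with -1.40 and -1.68 on the vehicle and -1.06 and -1.29 on the arrays with TSA. The summed signal of the list was 44.1 to 49.9 with vehicle, 89.8 to 94.96 with TSA and 237.7 in MuSC. The part of glial RNA in the other comparisons was not tested.

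FAP genes stayed above MuSC. Of 31 tested, 27 were higher, 0 were lower or near and 4 were neither, with a median of 2.86. The list includes Ly6a and Cd34, genes of the sorting gate. The populations were split by Sca1, the product of Ly6a, so the direction of Ly6a followed from the sort. Pdgfra was at 4.83 and 4.87 with vehicle, 3.88 and 4.22 with TSA and -1.65 in MuSC, a difference of 5.70 ± 0.23 (adjusted p = 0.00463, 51.9-fold). The growth factor Gdf10 read 3.52 and 3.28 against -2.61, a difference of 6.01 ± 0.28. The proteoglycan lumican (Lum) read 8.71 and 8.80 with vehicle, 7.72 and 7.95 with TSA and 2.01 in MuSC, a difference of 5.83 ± 0.20. Both TSA arrays lay below both vehicle arrays for Pdgfra and Lum, and over the list 28 of 31 genes had both TSA arrays between the vehicle arrays and a lower MuSC array, against 14.5% of all genes. The summed signal of the list was 4948 to 6203 with vehicle, 2599 to 2934 with TSA and 412.8 in MuSC.

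Extracellular matrix genes were mostly far above MuSC. The matrix lists share members with the FAP list, among them Lum, Mfap5 and Col14a1. Of 37 matrix glycoproteins and proteoglycans 34 were higher, with a median of 2.45, and of 19 collagen chains 13 were higher, with a median of 2.14; none of either list was lower. The fibril-associated collagen Col14a1 read 5.81 and 5.99 with TSA and 0.32 in MuSC, a difference of 5.58 ± 0.19, and its other probe gave 3.30. Col8a2, a network-forming chain, differed by 4.18 ± 0.19 and Col6a2, a chain of beaded filaments, by 3.46 ± 0.18. The microfibril genes Mfap4 and Mfap5 differed by 4.51 ± 0.19 and 4.08 ± 0.20. Ltbp2, which binds to fibrillin, differed by 4.63 ± 0.20 and was one of the matrix genes whose TSA arrays, 5.16 and 5.30, lay above the vehicle arrays, 4.18 and 4.01, as well as above MuSC. A few matrix genes were near MuSC: Col18a1 of vascular basement membranes at -0.48 ± 0.18, Col7a1 of anchoring fibrils at 0.14 ± 0.18, and thrombospondin 1 (Thbs1) at 0.09 ± 0.19. Of 22 matrix proteases and inhibitors 12 were higher and 3 were near. The stromelysin Mmp3 read 4.49 and 4.56 with vehicle, 3.81 and 4.05 with TSA and -2.16 in MuSC, a difference of 6.09 ± 0.20. Mmp19 was at least 36.3-fold higher (means 0.54 and -4.64), since its probe was not well above background on the MuSC array. The metalloprotease inhibitor Timp3 was near, at -0.22 ± 0.18.

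**Figure D2:**
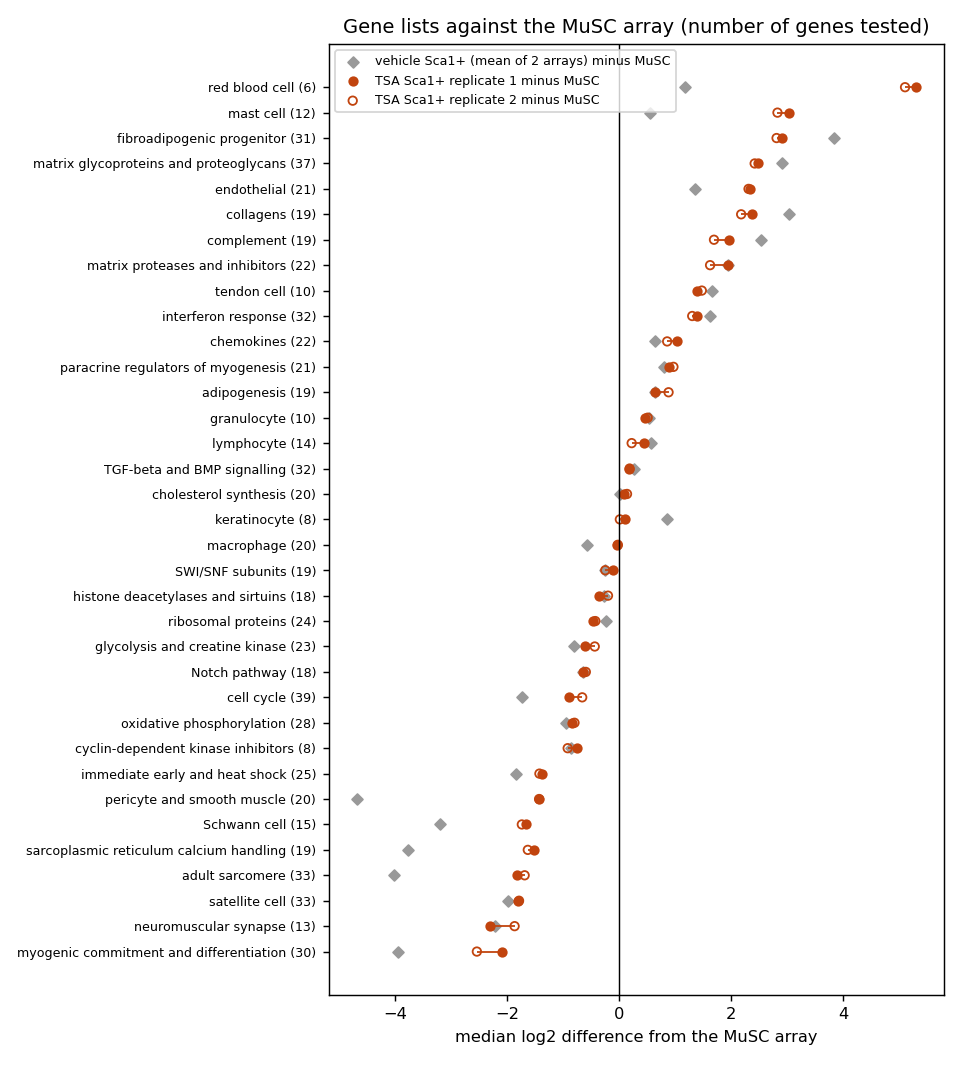
Median log2 difference from the MuSC array over the tested genes of each list (number in brackets); filled and open circles are TSA Sca1+ replicates 1 and 2 and grey diamonds the mean of the vehicle Sca1+ arrays. Both replicates lie on the same side of 0 in each list, but they differ in some, such as -2.10 and -2.54 for myogenic commitment and differentiation. The smooth muscle list, at -1.44 with TSA and -4.69 with vehicle, has the widest gap between the TSA and vehicle marks below 0.

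Many secreted immune factors were higher than in MuSC as well. Complement C3 read 8.46 and 8.45 with vehicle, 7.33 and 7.45 with TSA and 1.81 in MuSC, a difference of 5.59 ± 0.18, and factor B (Cfb) and C4b differed by 5.37 ± 0.21 and 4.38 ± 0.21. In all, 11 of 19 complement genes were higher and 0 lower, while the C1q chains C1qa, C1qb and C1qc, made by macrophages, were near at -0.14, -0.19 and -0.07. Of 22 chemokines 11 were higher, 1 was lower (Cxcl1, -2.15 ± 0.19) and 5 were near. The monocyte attractants Ccl2 and Ccl7 read 5.52 and 5.88 and 4.25 and 4.40 with TSA, 1.67 and -0.18 in MuSC, and 4.45 and 4.48 and 3.12 and 3.27 with vehicle. For both genes the TSA arrays thus lay above vehicle and MuSC. Of 32 interferon response genes 20 were higher and 0 lower, with a median of 1.32. The antiviral enzymes Oas2 and Oas1a differed by 3.39 ± 0.22 and 2.62 ± 0.19, and the regulator Irf1 was near at 0.07 ± 0.21.

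Signalling lists were mixed, and are set against 7.96% higher, 4.84% lower and 35.7% near over all genes. Of 32 genes of TGF-beta and BMP signalling 5 were higher, 5 lower, 10 near and 12 neither, with a median of 0.18. The share near was close to the 35.7% of all genes. The BMP antagonist Chrdl2 read -6.70 and -6.52 with vehicle, not above background, -0.61 and -0.68 with TSA and 3.80 in MuSC, a difference of -4.44 ± 0.19. The receptor genes Bmpr1a and Acvr1, the transducer Smad3 and the ligand Tgfb3 were near, at -0.03, 0.16, 0.24 and 0.40. Of 21 paracrine regulators of myogenesis 9 were higher, 2 lower and 3 near. Igf1, a growth factor for muscle, read 4.59 and 4.50 with vehicle, 3.82 and 3.99 with TSA and -0.18 in MuSC, a difference of 4.08 ± 0.19, and its 5 probes ranged from 0.59 to 4.08. The fetal growth factor Igf2 was lower, at -2.81 ± 0.43. Follistatin (Fst), an inhibitor of myostatin, read 4.62 and 3.83 with vehicle, 3.26 and 2.79 with TSA and 1.69 in MuSC. Its difference of 1.34 ± 0.42 did not pass the test (adjusted p = 0.13, 95% interval 0.20 to 2.48). Osteopontin (Spp1) and Il6 were near, at -0.05 ± 0.21 and -0.31 ± 0.19.

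The Notch pathway, which maintains satellite cell quiescence, split by receptor. Notch3, a receptor of satellite cells and vessel walls, read 2.51 and 2.32 with vehicle, 4.68 and 4.46 with TSA and 6.49 in MuSC, a difference of -1.92 ± 0.21. The target gene Heyl and the Hes family member Hes6 were lower as well, at -1.97 ± 0.23 and -1.97 ± 0.18. Notch4, an endothelial receptor, was higher, at 2.69 ± 0.18. Notch2, the pathway transcription factor Rbpj and the coactivator Maml1 were near, at -0.35, -0.04 and 0.26. Over 18 genes 3 were higher, 5 lower, 4 near and 6 neither, against 7.96% higher, 4.84% lower and 35.7% near over all genes.

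Chromatin regulators were called at a share close to the 12.8% of all genes. Of 18 histone deacetylases and sirtuins, the enzyme family that TSA acts on in part, 11 were near, 1 was higher (Hdac7, 1.60 ± 0.21), 1 was lower (Hdac11, -1.76 ± 0.30) and 5 were neither, with a median of -0.29. Hdac1 read 4.47 and 4.65 with TSA and 4.61 in MuSC, a difference of -0.05 ± 0.20. Among 19 subunits of the SWI/SNF remodelling complex 7 were near, a share close to the 35.7% of all genes, 10 were neither, and the 2 subunits called are alternative members of 1 family. Smarcd3, the muscle form of BAF60, read 0.27 and -0.03 with vehicle, 1.65 and 1.60 with TSA and 3.26 in MuSC, a difference of -1.63 ± 0.22 (adjusted p = 0.0195). Smarcd2 was higher, at 1.27 ± 0.25 (adjusted p = 0.0463), a call lost with slide as a block and with the median over probes. Smarcd1 differed by -0.44 ± 0.22 and was neither called nor near (95% interval -1.04 to 0.15).

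Proliferation genes lay between the vehicle arrays and MuSC. Of 39 cell cycle genes 8 were lower, 0 higher, 6 near and 25 neither, with a median of -0.76. The shares over all genes were 4.84% lower, 7.96% higher and 35.7% near. For 37 of the 39 both TSA arrays lay above both vehicle arrays and below MuSC, against 13.9% of all genes. The ribonucleotide reductase subunit Rrm2 read 0.84 and 0.67 with vehicle, 2.12 and 2.23 with TSA and 3.75 in MuSC, a difference of -1.57 ± 0.19. The replication regulator E2f8 differed by -1.93 ± 0.27 and the mitotic activator Cdc20 by -1.30 ± 0.21, whereas the replication clamp Pcna and the helicase subunit Mcm4 were near at -0.18 ± 0.20 and -0.27 ± 0.21. Of 8 cyclin-dependent kinase inhibitors 3 were lower and 3 near. Cdkn2a, which restrains proliferation in stem cells, read -3.54 and -4.38 with vehicle, -0.44 and -0.52 with TSA and 3.15 in MuSC, a difference of -3.63 ± 0.39, and its second probe gave -3.82. Cdkn1a, the p21 gene, differed by -2.23 ± 0.20 with probes from -2.23 to -0.75, a call lost with the median over probes. Cdkn1b, Cdkn2c and Cdkn2d were near.

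Metabolic and housekeeping lists differed in their share of calls, against 4.84% lower and 35.7% near over all genes. Of 24 ribosomal protein genes 14 were near and 0 were called, with a median of -0.44. Of 20 cholesterol synthesis genes 13 were near, with a median of 0.15. Of 23 genes of glycolysis and creatine kinase 4 were lower and 7 near. The muscle enolase Eno3 differed by -2.57 ± 0.18 and the muscle phosphoglycerate mutase Pgam2 by -1.60 ± 0.21. The lactate dehydrogenase chain Ldhb and the ubiquitous enzyme Gapdh were lower too, at -1.57 ± 0.18 and -1.10 ± 0.18, and the enzymes Ldha and Pgam1 were near at -0.02 ± 0.20 and -0.23 ± 0.18. Of 28 genes of oxidative phosphorylation 6 were lower and 3 near, with a median of -0.82. The muscle form Cox7a1 differed by -1.64 ± 0.19, and the lower genes that are not muscle forms included cytochrome c (Cycs, -1.09 ± 0.19), Ndufs1 (-1.05 ± 0.21) and Cox8a (-1.02 ± 0.18). The Gapdh and Cox8a calls were lost with quantile normalization and with the deposited table, and the Cycs, Ndufs1 and Cox8a calls with slide as a block. Immediate early and heat shock genes, which respond to cell isolation, were lower in 16 of 25 cases and higher in 1 (Klf4), with a median of -1.42. The chaperone Hspa1a read 4.98 and 5.14 with vehicle, 5.08 and 5.19 with TSA and 8.21 in MuSC, a difference of -3.07 ± 0.19. The summed signal of this list was 663.9 to 669.5 with vehicle, 790.3 to 813.1 with TSA and 2324 in MuSC, and its part in the other results was not tested.

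**Figure D3:**
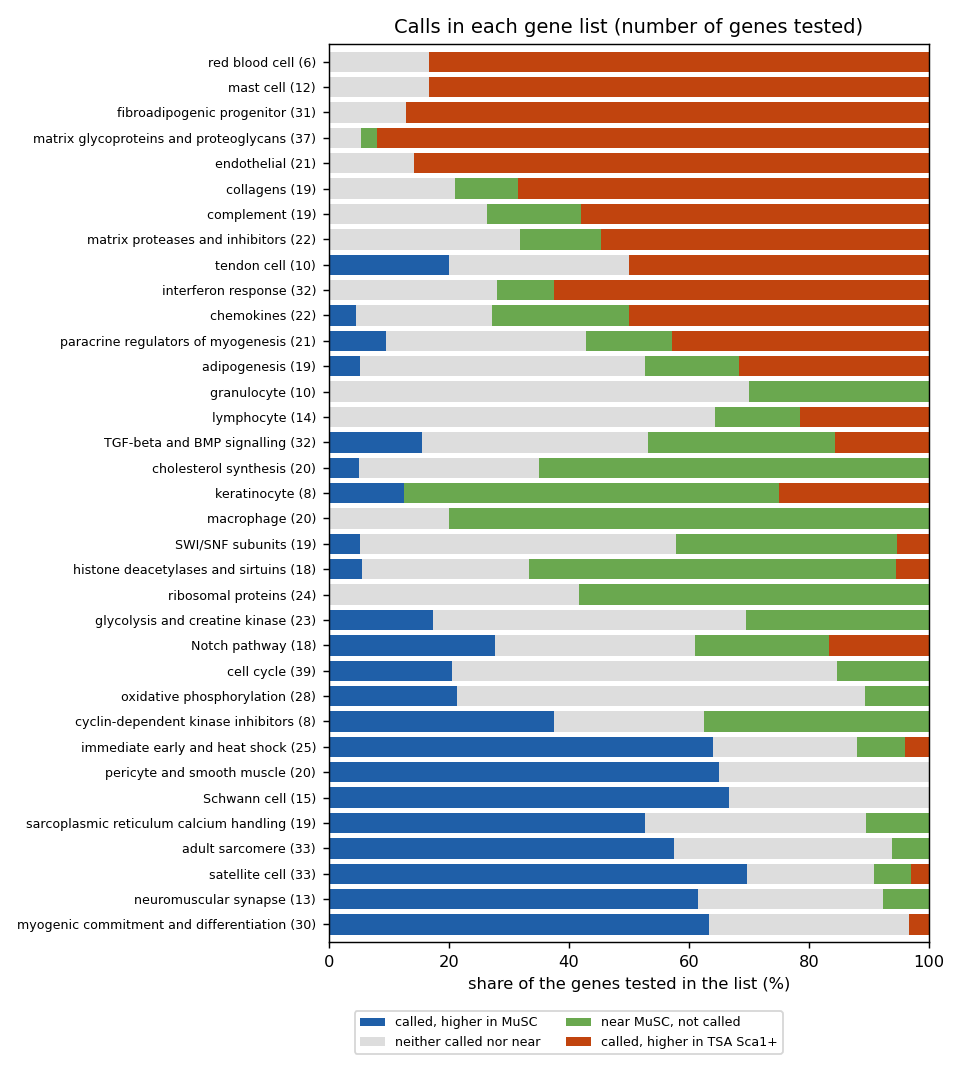
Share of the tested genes of each list that were called lower (blue), neither called nor near (grey), near MuSC (green) or called higher (orange) in TSA Sca1+ cells; the number of genes tested is in brackets. Red blood cell, mast cell, FAP and endothelial lists are mostly orange, macrophage, cholesterol synthesis and histone deacetylase lists mostly green, and the muscle, smooth muscle and Schwann cell lists mostly blue.

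Markers of other cells fell into separate patterns. Macrophage genes were mostly near MuSC: 16 of 20 were near, against 35.7% of all genes, and 0 were called, with a median of -0.04. The lysozyme gene Lyz1 read 3.62 and 3.73 with vehicle, 4.23 and 4.69 with TSA and 4.35 in MuSC, and the adaptor Tyrobp read 1.39 and 1.31, 1.98 and 1.91 and 1.97. Their differences were 0.11 ± 0.26 and -0.03 ± 0.18. Of 10 granulocyte genes 0 were called, too few genes to set against the 12.8% called over all genes. The 3 near were a share close to the 35.7% of all genes, and included the calprotectin genes S100a8 and S100a9 at 0.10 and -0.01. Endothelial genes were higher in 18 of 21 cases, against 7.96% of all genes, and lower in 0, with a median of 2.29. The receptor Tie1 read 1.07 and 0.80 with vehicle, 1.89 and 1.62 with TSA and -1.23 in MuSC, a difference of 2.98 ± 0.24. The transcription factor Sox18 differed by 2.88 ± 0.19 and the secreted Egfl7 by 2.64 ± 0.19. In 19 of the 21 endothelial genes both TSA arrays lay above both vehicle arrays and MuSC, against 7.13% of all genes. The summed endothelial signal was 367.8 to 396.7 with vehicle, 655 to 709.7 with TSA and 178 in MuSC, and its part in the other results was not tested.

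Mast cell genes were mostly higher than in MuSC. Of 12 tested, 10 were higher and 2 were neither, with a median of 2.92. The mast cell protease Mcpt4 read -1.76 and -1.75 with vehicle, 4.25 and 4.09 with TSA and -4.83 in MuSC, where it was not well above background, so it was at least 468-fold higher (adjusted p = 0.00463; probe at chr14:56678589-56678648, mm9). Carboxypeptidase A3 (Cpa3) read -5.39 and -3.59, 2.40 and 2.40 and -6.51, at least 138-fold higher. The chymase Cma1 and the IgE receptor chain Fcer1a were at least 59.6-fold and 17-fold higher (TSA means 1.20 and -0.62, MuSC -4.95 and -6.89). Of the 12 genes 5 were not above background on the MuSC array (Mcpt4, Cpa3, Cma1, Fcer1a and Mcpt1). The list held 15 genes, and a gene was tested if it was above background on all arrays of 1 group or more. Cpa3, Cma1 and Fcer1a met this only through the TSA arrays, where they are high. The filter thus favoured a higher call for them, and the count and median include them. The interleukin 33 receptor Il1rl1, on mast cells and other immune cells, differed by 6.29 ± 0.20, with the lowest of its 3 probes at 1.64 and above background on 1 TSA array. The summed signal of the list was 7.211 to 7.497 with vehicle, 45.2 to 49.1 with TSA and 2.35 in MuSC. Red blood cell genes were higher in 5 of 6 cases, with a median of 5.23. The globin Hba-a1 read 4.99 and 5.08 with vehicle, 8.88 and 9.02 with TSA and 3.63 in MuSC, a difference of 5.33 ± 0.19, and the globin genes share near-identical sequence, so their probes may not be separate. Alas2, the heme enzyme of red cells, differed by 5.24 ± 0.25. The summed red cell signal was 171.5 to 177.7 with vehicle, 1744 to 1811 with TSA and 73.9 in MuSC. Of 14 lymphocyte genes 3 were higher, the antibody joining chain Jchain (at least 14.6-fold; means -0.83 and -6.97), the B cell gene Ms4a1 (at least 3.92-fold; means -2.73 and -6.68) and the granzyme Gzma (2.31 ± 0.18). Jchain and Ms4a1 likewise passed the filter only through the TSA arrays. The Ms4a1 call was lost with normexp. The part of mast, red and lymphoid cells in the other results was not tested.

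The remaining lists were mixed, and are set against 7.96% higher, 4.84% lower and 35.7% near over all genes. Of 10 tendon cell genes 5 were higher and 2 lower, led by the matrix protein Comp at 3.80 ± 0.23. Of 19 adipogenesis genes 6 were higher, 1 lower and 3 near. The fat cell regulator Zfp423 differed by 2.36 ± 0.23 and the fatty acid carrier Fabp4 by 2.19 ± 0.20, while the adipogenic factor Cebpa was near at -0.09 ± 0.23. Of 8 keratinocyte genes 5 were near, among them Krt5 and Krt10, although the other Krt10 probe gave -1.07. Dmkn was higher at 2.27 ± 0.23 and Krtdap at least 1.58-fold higher (means -4.04 and -5.78; with normexp its difference turned to -0.16), while Perp was lower at -1.36 ± 0.25, with -2.65 and -3.08 on the vehicle arrays.

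Among genes near MuSC, 100 (0.383%) had both vehicle Sca1+ arrays at least 1 log2 unit below MuSC and 50 (0.192%) had both at least 1 unit above it. Among the 12 with the most distant vehicle signal, which have no firm order because some of their probes were not above background with vehicle, 11 had vehicle below MuSC, Myh4 being one of them. Apold1, an immediate early gene of endothelial cells, read -1.995 and -2.121 with vehicle, 0.23 and 0.32 with TSA and 0.26 in MuSC, a difference of 0.02 ± 0.19, although its other probe gave -0.86. The phosphatase Dusp8, which acts on stress kinases, read -1.90 and -1.67, -0.06 and 0.19 and 0.38 in that order of groups, a difference of -0.31 ± 0.23. The calcineurin-binding protein Chp2 read -1.91 and -1.85, 0.55 and 0.25 and 0.12, a difference of 0.28 ± 0.22. The rule that picked these 3 genes asks for TSA near MuSC and vehicle apart, so this grouping is not a separate result. The same rule also picked Myh4, Ehd3, Rab44, Esco2 and Unc93a, and the same limit holds for them. The endocytic recycling protein Ehd3 and the GTPase Rab44 were near at -0.32 ± 0.18 and 0.18 ± 0.24, with vehicle at -0.27 and -0.20 and at -3.24 and -3.61. Esco2, which joins sister chromatids, was near at -0.20 ± 0.28 and not above background on either vehicle array. The exception in direction was Unc93a, at -1.75 and -1.80 with vehicle, -4.20 and -3.78 with TSA and -3.73 in MuSC.

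In the opposite case, 150 genes (0.575%) were higher than MuSC with both TSA arrays at least 1 log2 unit above the vehicle and MuSC arrays alike, and 10 (0.0383%) were lower than all of them by as much. The 150 included Mcpt4, Cpa3, Mcpt-ps1, Fcer1a, Glycam1, Cma1 and Jchain, whose probes were not well above background in MuSC and which therefore have no order among them, and the measured genes Il1rl1, Hbb-bt and Hba-a1. Among them Cpa3, Fcer1a, Glycam1, Cma1 and Jchain passed the filter only through the TSA arrays. The globin Hbb-bt differed from MuSC by 5.42 ± 0.19. Glycam1, a mucin of high endothelial venules, was at least 14.6-fold higher than MuSC (means -0.83 and -7.00).

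Several large differences concerned genes outside these lists. Trim6, a ubiquitin ligase, read -6.42 and -5.14 with vehicle, -5.44 and -4.90 with TSA, above background on 1 of them, and 5.08 in MuSC, a difference of -10.25 ± 0.61 (probe at chr7:111382909-111382968, mm9). Its other probes gave -0.84 and 0.08 and were not above background. The zinc finger gene Zfp846 read -1.69 and -2.01 against 6.79, a difference of -8.64 ± 0.22, while its other probe, above background on all 3 arrays, gave -0.20 (first probe at chr9:20398366-20398425, mm9). For Trim6 and Zfp846 the probes of the gene thus disagreed. The homeobox gene Prox1 differed by -4.47 ± 0.20, above background on 1 TSA array. Edn3, the peptide endothelin 3, was at least 12.6-fold lower (means -6.38 and -1.61), and the fructose transporter Slc2a5 at least 10.4-fold lower (means -6.44 and -1.88). Trim6, Prox1, Edn3 and Slc2a5 passed the filter only through the MuSC array, where they are high, which favoured a lower call. On the other side the tetraspanin Tspan11 and the matrix protein tenascin N (Tnn) were at least 16.5-fold and 12.9-fold higher (means -0.66 and -6.93, and -1.01 and -7.00).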

How the data were processed

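Sorted cells of mdx muscle were profiled on 5 Agilent arrays of 1 colour: 2 of Sca1+ cells with TSA, 1 of MuSC with vehicle and 2 of Sca1+ cells with vehicle. Per the file headers, the spot intensities come from Agilent's Feature Extraction software, version 10.7.3.1, as a processed intensity that is background-subtracted and detrended within the array and not scaled between arrays. The deposited table holds log2 values; its columns share a median of 4.67 and rank each array's spots as the processed intensity does (Spearman 1.0), and the tool that made it is not given in the sources used here. It served as an alternative.

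Values were log2 of the processed intensity minus the array's 75th percentile over non-control spots (165 to 452). Outlier spots (0.196% to 0.334%) were left out, spots of 1 probe were averaged, and for a gene with several probes the one with the highest mean was taken. Of 55681 probes 26513 were named by accession through the RefSeq table of GRCm38.p6 and 574 through another probe; the rest kept the design's name. Of 36388 genes and unnamed features, 26079 passed the filter (well above background on all arrays of 1 group or more) and were tested; 9 of them lacked a value on 1 or more arrays after outliers were removed and were fitted on the others.

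The linear model of limma 3.58.1 (R 4.3.3; lmFit and eBayes) took all 5 arrays in 3 groups, with 2 residual degrees of freedom beside 2.30 prior ones; tests were two-sided, at a threshold of 0.05 after Benjamini-Hochberg adjustment over all genes tested. The fit was tested on simulated data. A fold "at least" is the brighter mean against the dim probe or, where higher, the dimmest probe that was well above background on that array. Replicate numbers coincide with slides: the deviations of replicates correlated at 0.35 between TSA and vehicle groups, and 2 pairs are too few to settle a pairing. Motif matches were read in the 250 bases before each start.

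Genes were named by rule: the 12 largest calls in each direction, the leading called and near members of each of 36 lists, the 12 near genes with vehicle farthest from MuSC, the 8 largest calls outside both other groups (by signal, so those resting on a probe not above background have no order), and 15 genes by name; a few others are named where a count of 5 or fewer needed it or to list members, chosen after their values were seen. Some genes that the rule names are not reported here. The comparison, gene lists and rule were chosen with earlier results of these data known, and lists are described, not tested. The alternatives were normexp background correction (on the median spot signal, since the mean signal was not used on every array), quantile normalization, the deposited table, 2 other filters, slide as a block, only the 3 arrays compared, the median over probes, and leaving out arrays.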

Additional observations from a re-analysis of the deposited data

How the results depend on the processing

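The counts of genes higher, lower and near MuSC were 2076, 1261 and 9313. Under quantile normalization, the deposited table, the stricter filter and the median over probes each count stayed within 1.5 times its value. With slide as a replicate block, which here equals the replicate number, they were 2171, 1322 and 10192. Normexp moved the near count to 14790; the cause was not tested. Without the filter on dim probes, which tests 36388 features, 982 were higher and 324 lower. With only the 3 TSA and MuSC arrays, which leaves fewer degrees of freedom, 805 were lower. Leaving out 1 vehicle array gave the same counts by construction, because a lone vehicle array adds nothing to the estimate of the spread. When 1 array was left out, the higher count ranged from 0 to 1539, the lower from 0 to 805 and the near count from 4065 to 9275; the lowest calls came without TSA replicate 2, with 5280 genes at an unadjusted p under 0.05. Within slide 1, TSA replicate 1 minus MuSC is a value with no test. The median of 33 of 36 lists kept its sign in every setting; those of adipogenesis (-0.01 to 0.88), keratinocytes (-0.23 to 0.10) and macrophages (-0.04 to 0.00) did not. All 19 lists with a median beyond 1 kept theirs. Of 230 named genes 135 were called, and among these Krtdap alone changed direction. It was at -0.16 with normexp against 1.74, where its MuSC probe was not above background, and the cause was not tested. Genes not called could change sign around 0, such as Myh4, at 0.03 in the main setting and -0.14 within slide 1. Depth here is signal over background: a probe below it in MuSC gives only a bound, and differences under about 0.87 could not be called.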
